A study of Mus musculus with 71 samples.

Results

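The comparison described here is that of hippocampal mRNA 12 h after object recognition memory training (ORM+12 h) with mRNA of untrained home cage mice (HC) killed at about the same clock time, in mice on a high-fat sucrose diet with time-restricted feeding (HFS TRF). Its members were found by their labels and not by any measured value, as the 6 HFS TRF mice labelled ORM+12 h and the 5 HFS TRF mice labelled HC zt15, which are 11 of the 71 mice of the series. Both groups were wild-type male C57BL/6J mice that had the high-fat sucrose diet from weaning. In the last weeks they had time-restricted access to food, mainly at night. HC mice were killed at zt15 and ORM+12 h mice in a window around it, where zt counts hours from lights on. The groups share diet and feeding schedule and differ by the training, while clock time was matched only to that window. Messenger RNA was pulled down from whole hippocampus with an antibody to phosphorylated ribosomal protein S6 (pS6-TRAP) and sequenced, and each value is the number of reads of a gene in 1 mouse. The other mice had the same diet at zt3 with or without training 1 h before, or were fed high-fat sucrose (HFS ad lib) or normal chow (NC ad lib) at all hours.

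In object recognition memory training a mouse explores objects that it can later tell from unfamiliar ones, and the hours that follow are the time in which such a memory is stored. Neurons that fire switch on immediate early genes such as Fos and Arc within the first hour, while lasting changes in synaptic strength involve glutamate receptors of the AMPA type, the auxiliary proteins that carry them to the membrane, the scaffold below them and the potassium channels that set excitability. Phosphorylation of S6 marks ribosomes of cells with recent activity, so that pS6-TRAP enriches their mRNA. It does not remove all others, and glia and neighbouring tissue can contribute. The choroid plexus, which lines the ventricle beside the hippocampus and makes transthyretin (Ttr), is such a tissue.

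Ttr differed more between mice of a group than between the groups. In CPM, read counts per 1000000 counts of the library after TMM scaling, HC mice 1 to 5 had Ttr at 6902, 338, 17308, 8102 and 288. The 6 ORM+12 h mice had a lowest value of 129, a median of 290 and a highest value of 9760 CPM, the last in ORM+12 h mouse 6. Thus 3 HC mice (1, 3 and 4) and 1 ORM+12 h mouse lay above 1000 CPM, and the 7 others below it, with overlap between the groups. The difference in mean log2 CPM was -2.43 and did not pass a 2-sided exact permutation test (p = 0.126, 0.157 after Benjamini-Hochberg adjustment over 15 marker lists and Ttr, where the smallest p the 11 mice can give is 0.00216). In bulk tissue, fewer cells of a type and less RNA per cell cannot be told apart. All 20 choroid plexus markers tested had a negative log2 fold change, with none passing edgeR's test, and their summed level ranged from 605 to 25764 CPM in HC mice and from 325 to 13804 CPM in ORM+12 h mice, none of the 20 being under 1 CPM on average. The 12 ependymal markers, genes of the ciliated cells of the ventricle wall, summed to 29.9 to 127 CPM in HC mice and 19.4 to 73.9 CPM in ORM+12 h mice, with 4 of them (Ccdc153, Dnah11, Hydin and Tmem212) under 1 CPM on average. The first principal component of the 11 mice held 50.4% of the variance and put the same 4 mice on 1 side, at 23.6 to 46.4, and the 7 others at -29.1 to -12.9. The comparison was therefore also fitted with the choroid plexus markers as a covariate and without these 4 mice, the latter chosen after seeing the data. In none of the 45 gene lists did a gene pass without these 4 mice, so the counts of list members below are for all 11 mice. Total counts per mouse ranged from 47472589 to 56723234.

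**Figure D1:**
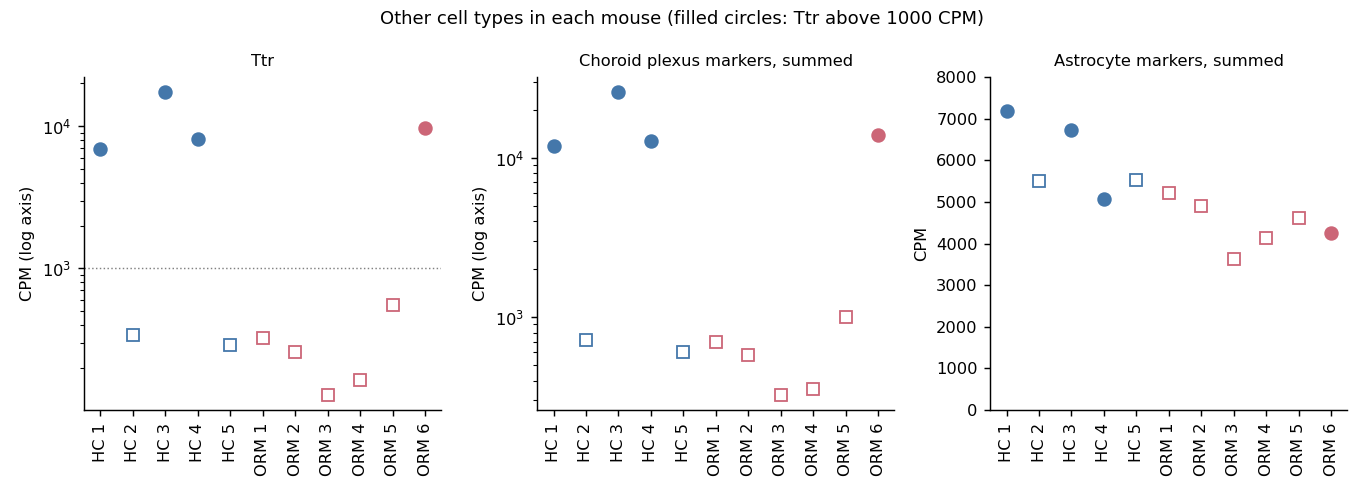
Ttr, the sum of 20 choroid plexus markers (both CPM, log axes) and the sum of 16 astrocyte markers (CPM, axis from 0) in each of the 5 HC zt15 mice (blue) and 6 ORM+12 h mice (red). Filled circles are the mice with Ttr above 1000 CPM, which are HC 1, 3 and 4 and ORM 6, and open squares are the others.

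At ORM+12 h, some genes of neuronal receptors, ion channels and the postsynaptic density, 29 of the 147 listed, were higher than in HC mice, while some enzymes of fatty acid oxidation, a few activity-induced genes and a few clock genes were lower. Of 30141 genes tested, 473 were higher (percent called 1.57%) and 268 lower (0.889%), 2.46% in all, when genes with a Benjamini-Hochberg adjusted p below 0.05 in the quasi-likelihood test of edgeR were called (median size of the change on the log2 scale 0.40 and 0.55), and 6477 genes had an unadjusted p under 0.05. Among the 14618 genes with a mean of at least 1 CPM in the 11 mice, 458 (3.13%) were higher and 221 (1.51%) lower. The values of the groups did not overlap for 216 of the 473 and for 82 of the 268, while they did not for 1.94% of all genes tested (1.18% with ORM+12 h higher and 0.756% with it lower). With the choroid plexus markers as a covariate 132 genes were higher (0.438%) and 56 lower (0.186%), and all 741, which were called in these same mice, kept their direction. With Ttr itself as the covariate 180 (0.597%) and 68 (0.226%) passed. Without the 4 mice with high Ttr, 0 genes were higher and 1 was lower (0.00332%) in edgeR, with 2953 at an unadjusted p under 0.05, while 473 of the 473 and 258 of the 268 kept their direction in the 2 HC and 5 ORM+12 h mice left, which are also part of the full comparison. The count rested on single mice too, being 8 higher and 6 lower without HC mouse 1, 3 and 4 without HC mouse 4, 61 and 24 without ORM+12 h mouse 3, and 207 and 91 without ORM+12 h mouse 5. In a model of the 35 mice of the series killed at or around zt15 no gene passed in edgeR (smallest adjusted p = 0.057, 5049 genes at an unadjusted p under 0.05), while the DESeq2 Wald test in all 71 mice called 995 higher and 696 lower (6.41% and 4.48% of the 15532 genes it tested).

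**Figure D2:**
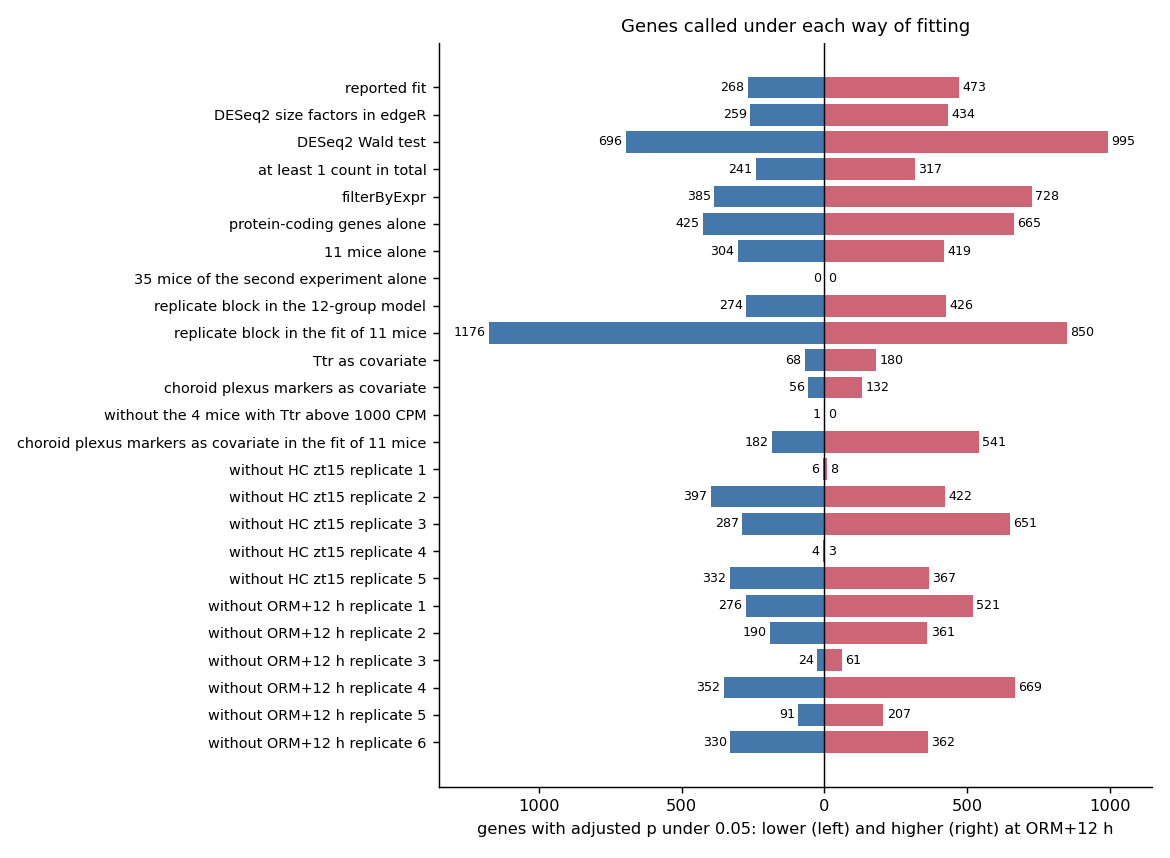
Number of genes higher (red, right) and lower (blue, left) at ORM+12 h at an adjusted p under 0.05 for the reported fit and 24 other ways of fitting. The bars shrink to 14 and 7 genes in all without HC mouse 1 or 4, and to 0 and 1 in the fits of the 35 mice and without the 4 mice with Ttr above 1000 CPM.

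Among 147 genes in 7 lists of synaptic and channel proteins, 29 (19.7%) were higher, 0 lower and 118 did not pass. The shares were 1.57% higher and 0.889% lower over all genes tested. Among the 14618 genes with a mean of at least 1 CPM they were 3.13% and 1.51%. The lists were chosen with earlier results of these data known. In these lists 133 genes had a positive log2 fold change, and their median was 0.24, against 0.00 over all genes tested. The median was 0.20 with the choroid plexus covariate, with 11 genes higher, and 0.20 without the 4 mice with high Ttr, with 0 genes higher. In the fits that left out 1 mouse, called genes ranged from 0 to 14 in the potassium and HCN channel list and from 1 to 9 in the AMPA and kainate receptor list.

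Of 23 genes of AMPA and kainate glutamate receptors and their auxiliary proteins, 6 were higher, 0 lower and 17 did not pass, all 23 had a positive log2 fold change, and the median was 0.28. Cnih3 (chr1:181180024-181289051, GRCm39, plus strand), a cornichon protein that escorts AMPA receptors to the membrane, was at 84.5, 97.3, 82.2, 73.7 and 86.5 CPM in HC mice 1 to 5, and at 119 to 143 CPM (median 128) in the ORM+12 h mice. Every ORM+12 h mouse was above every HC mouse, and the 3 HC mice with high Ttr were the 3 lowest of their group. The log2 fold change was 0.60 (SE 0.11, adjusted p = 0.00476), it was 0.56 with the choroid plexus covariate (adjusted p = 0.0133), and Cnih3 still passed in each fit that left out 1 mouse (highest adjusted p = 0.0489). Shisa9, an AMPA receptor partner enriched at dentate gyrus synapses, was at 22.8, 25.2, 25.6, 24.2 and 26.9 CPM in HC mice and at 27.4 to 42.5 CPM (median 40.3) at ORM+12 h. ORM+12 h mice 1 and 4 lay just above the HC mice and the other 4 well above them (log2 fold change 0.56, SE 0.11, adjusted p = 0.00934). The other members that passed were the cornichon Cnih2 (0.39), the transmembrane regulator Cacng7 (0.46), the auxiliary subunit Gsg1l (0.66) and the kainate receptor subunit Grik5 (0.56). With the choroid plexus covariate 2 of the 6, Cnih3 and Shisa9, passed, and the other 4 had adjusted p of 0.0545 to 0.0746. The pore subunits Gria1 (0.27, adjusted p = 0.107), Gria2 (0.16, adjusted p = 0.343) and Gria3 (0.27, adjusted p = 0.112) did not pass.

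Of 14 NMDA and metabotropic glutamate receptor genes, 1 was higher and 0 lower. Grm2 (chr9:106520294-106533870, minus strand), a presynaptic receptor that dampens glutamate release, was at 61.3, 69.2, 73.2, 54.4 and 53.2 CPM in HC mice and at 87.4 to 113 CPM (median 98.1) at ORM+12 h. The groups did not overlap, and the lowest ORM+12 h value was in mouse 6 (log2 fold change 0.67, SE 0.12, adjusted p = 0.00604). Of 14 GABA receptor genes 2 were higher, among them Gabra3 (0.48, adjusted p = 0.0275), and 0 lower. In the presynaptic release machinery, 2 of 24 genes were higher and 0 lower: Cplx2, a complexin that clamps vesicle fusion, at 3221 to 3616 CPM in HC mice and 3814 to 4594 CPM at ORM+12 h without overlap (0.29), and the adhesion molecule Nrxn2 (0.45), whose groups overlapped. None of these GABA receptor and presynaptic genes passed with the choroid plexus covariate.

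In the postsynaptic scaffold 5 of 20 genes were higher and 0 lower (median 0.19). Dlg4 (chr11:69907768-69938348, plus strand), which encodes PSD-95, was at 1562, 1927, 1777, 1661 and 1773 CPM in HC mice and at 1972 to 2470 CPM (median 2274) at ORM+12 h. The groups did not overlap, although ORM+12 h mouse 2 was close to HC mouse 2 (log2 fold change 0.38, SE 0.09, adjusted p = 0.0163). The other genes of the same list that passed were Dlgap3 (0.57), Shank1 (0.61), Shank3 (0.40) and Nlgn2 (0.49), the last at inhibitory synapses. In these 4 genes HC mouse 3 was the highest of its group and overlapped with ORM+12 h mice, for example at 536 CPM in Shank1 against 329 to 357 CPM in the other HC mice and 478 to 683 CPM at ORM+12 h. With the choroid plexus covariate 4 of the 5 passed, all but Shank3.

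Potassium and HCN channels held the largest number of called genes of any list, 10 of 29 higher and 0 lower (median 0.30, 28 positive). Kcnc4 (chr3:107345603-107367781, minus strand), a voltage-gated potassium channel, was at 55.3, 60.5, 56.3, 49.2 and 59.3 CPM in HC mice and at 79 to 99 CPM (median 85.5) at ORM+12 h. Its groups lay apart by more than the range of the HC mice (log2 fold change 0.64, SE 0.14, adjusted p = 0.0125). Kcnh3, a channel of forebrain neurons, was at 69.5 to 103 CPM in HC mice and 111 to 136 CPM at ORM+12 h (0.63, adjusted p = 0.0157). Its groups did not overlap either. Kcnd3 (0.35), Kcnma1 (0.40), Kcnn1 (0.43), Kcnj9 (0.46) and Hcn3 (0.56) also rose, with overlapping groups and adjusted p from 0.0316 to 0.0489. Among voltage-gated sodium and calcium channels 3 of 23 were higher, among them the subunits Cacnb3 (0.39) and Cacna1h (0.45), and 0 lower. With the choroid plexus covariate 3 potassium and HCN channel genes and 1 sodium and calcium channel gene passed, and the list medians were 0.25 and 0.21.

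**Figure D3:**
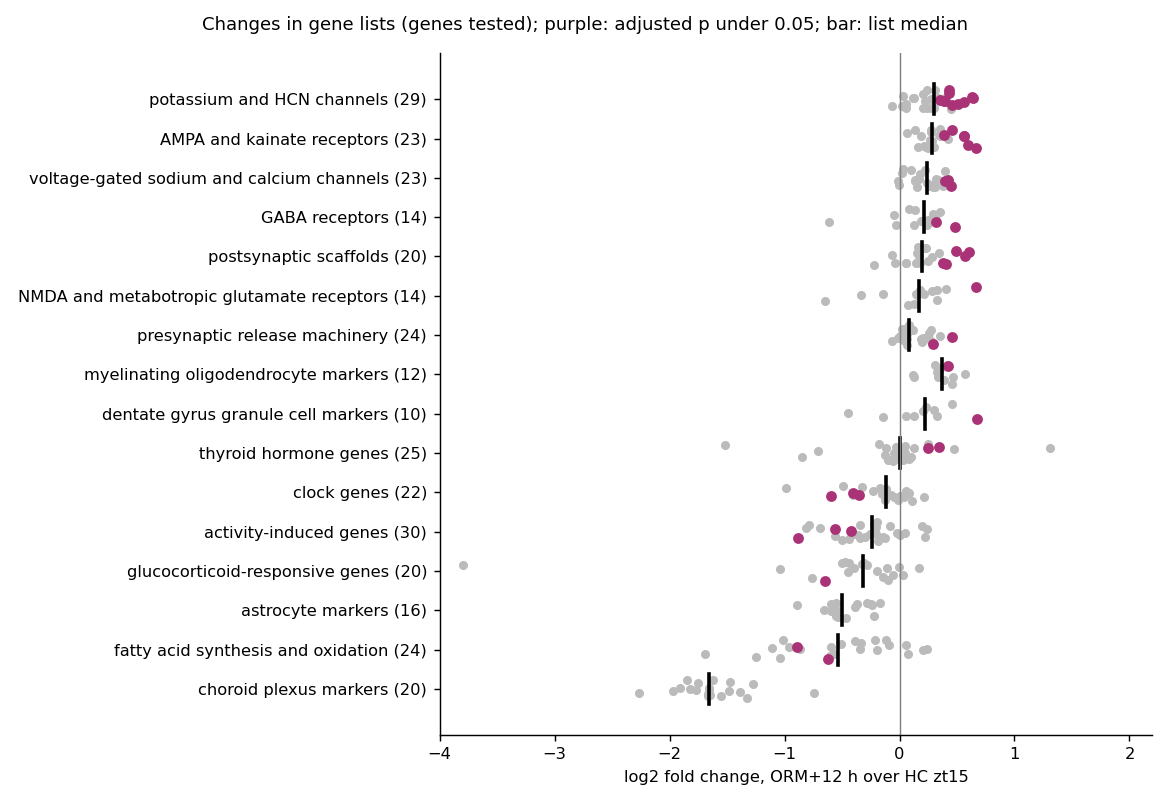
Log2 fold change of ORM+12 h over HC zt15 for each gene tested in 16 gene lists, with the number tested in brackets. Purple points have an adjusted p under 0.05 in edgeR, grey points do not, and the black bar is the list median, which is 0.30 for potassium and HCN channels and -1.66 for choroid plexus markers.

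The gene with the smallest adjusted p among the higher genes named was Drd5 (chr5:38476710-38479861, plus strand), a dopamine receptor that raises cyclic AMP. It was at 12.4, 15.9, 16.7, 13.4 and 16.2 CPM in HC mice and at 18.6 to 28.1 CPM (median 24.4) at ORM+12 h, with ORM+12 h mouse 4 nearest to the HC mice and no overlap. The log2 fold change was 0.69 (SE 0.12, adjusted p = 0.00337), 0.67 with the choroid plexus covariate (adjusted p = 0.00629), and it passed in each fit that left out 1 mouse (highest adjusted p = 0.0278). The others with the smallest p were Ntng2 (0.67), a netrin-G that organizes axon and dendrite contacts, Cdh22 (0.74), a cadherin of the forebrain, Gng7 (0.50), a G protein subunit, Tmcc2 (0.56), Rapgefl1 (0.38) and Rhbdl3 (0.61), with adjusted p of 0.00934 to 0.0109. None of these 6 overlapped between the groups. C1ql2, a secreted synaptic organizer of dentate granule cells, was at 62.4 to 86.4 CPM in HC mice and 97.5 to 122 CPM at ORM+12 h (0.68, adjusted p = 0.0125).

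Eps8l1, which encodes a relative of an actin-capping protein, had the largest fold change among higher genes without overlap between the groups, with a mean of at least 1 CPM and a symbol that is not a model number (log2 fold change 1.83, SE 0.42, adjusted p = 0.0168). It was at 0.803, 7.84, 3.76, 3.41 and 3.76 CPM in HC mice and at 8.35 to 25.6 CPM at ORM+12 h. The lowest ORM+12 h mouse was only just above HC mouse 2, and HC mouse 1 was far below its group. Kif26a (0.95), Krt2 (0.80), Rasip1 (0.76) and Gjd2os (0.91) followed among these, Kif26a, Rasip1 and Gjd2os all under 5 CPM in every mouse. Gjd2os is an antisense transcript, and the strand setting of the read counting is not given in the sources used here, so its reads and those of the opposite strand cannot be told apart. Other genes higher by list were Slc17a7 (0.41), the vesicular glutamate transporter VGLUT1, the motor Kif5a (0.42) and the microtubule protein Map1a (0.33), both of neurons, Wnt7b (0.50), a Wnt ligand that promotes dendrite growth, Bace1 (0.36), the beta-secretase, Orai2 (0.35), a store-operated calcium channel, and Chd3 (0.37), a chromatin remodeller.

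**Figure D4:**
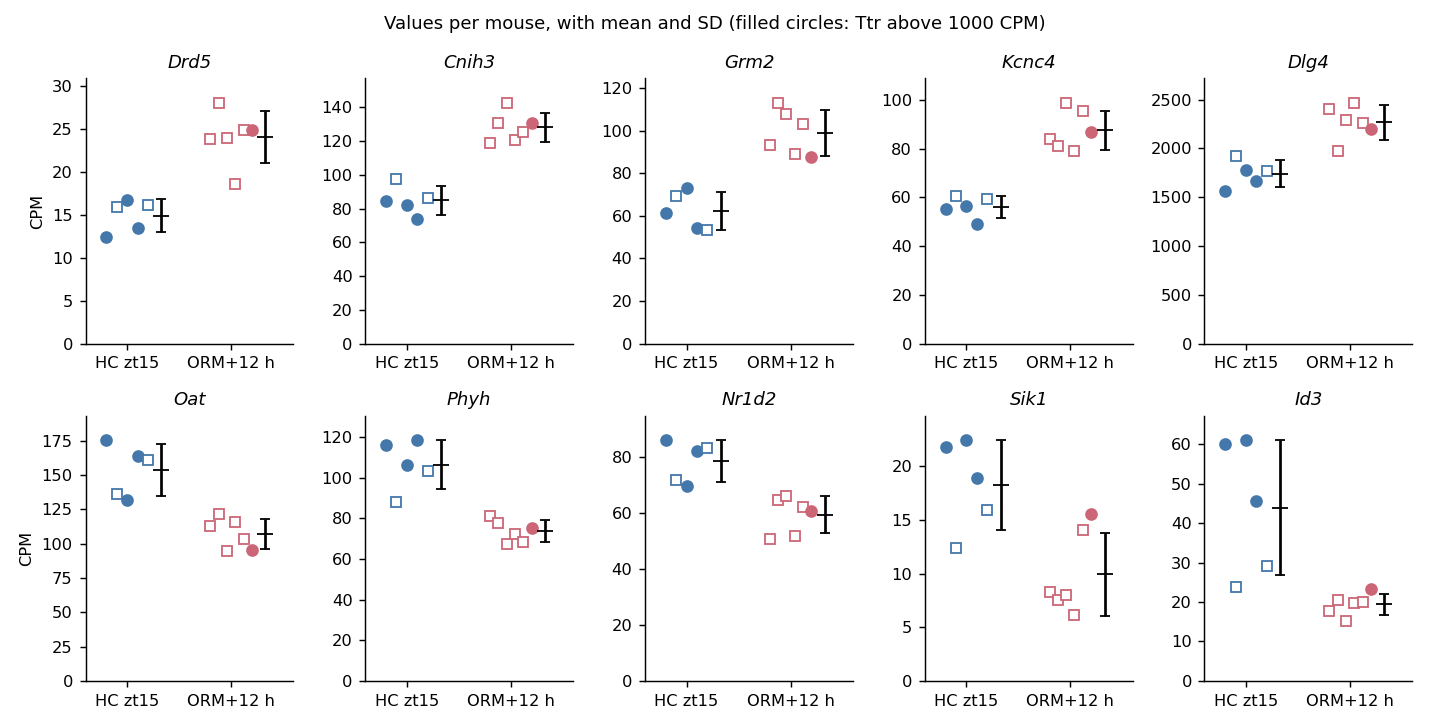
CPM of 5 genes that were higher (upper row) and 5 that were lower (lower row) at ORM+12 h, 1 point per mouse, with the group mean and SD beside them and axes from 0. Filled circles are mice with Ttr above 1000 CPM; in Id3 the 3 such HC mice are at 45.8 to 61.1 CPM and the other 2 at 23.8 and 29.1 CPM, while in Cnih3 the 3 such HC mice are at 73.7 to 84.5 CPM and the other 2 at 86.5 and 97.3 CPM.

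Among the lower genes named were enzymes of mitochondria and peroxisomes. Oat (chr7:132159153-132191517, minus strand), ornithine aminotransferase, was at 176, 136, 132, 164 and 161 CPM in HC mice and at 94.9 to 122 CPM (median 108) at ORM+12 h. Every ORM+12 h mouse was below every HC mouse (log2 fold change -0.52, SE 0.10, adjusted p = 0.00975). Phyh, which starts the breakdown of phytanic acid in peroxisomes, was at 88 to 119 CPM in HC mice and 67.2 to 80.8 CPM at ORM+12 h, again without overlap (-0.53, adjusted p = 0.0109). Also without overlap were Ide, the insulin-degrading enzyme (-0.44), Gnai3, an inhibitory G protein subunit (-0.53), Mrps31 of the mitochondrial ribosome (-0.43), Agbl4, a tubulin deglutamylase (-0.56), Ing3, a chromatin protein (-0.39), and Nufip2, an RNA-binding protein (-0.47). In Phyh, Ide and Gnai3 the 3 HC mice with high Ttr were the 3 highest of their group. In Oat, Mrps31, Agbl4, Ing3 and Nufip2 they were not. With the choroid plexus covariate Phyh, Ide and Gnai3 still passed, at -0.45, -0.41 and -0.41. Without the 4 mice with high Ttr they were at -0.38, -0.31 and -0.31. Rab7-ps1 (-0.41) is a processed pseudogene that can share reads with its parent gene, and its value is uncertain.

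Among called genes whose groups did not overlap, with a mean of at least 1 CPM and a symbol that is not a model number, the 5 with the largest falls were Id3, Acads, Depdc7, Acsf2 and Gbe1, and in 4 of them, all but Acsf2, the 3 HC mice with high Ttr were the 3 highest of their group. Id3, an inhibitor of basic helix-loop-helix factors, was at 60.1, 23.8, 61.1, 45.8 and 29.1 CPM in HC mice and at 15.2 to 23.3 CPM (median 19.9) at ORM+12 h. The groups did not overlap, and ORM+12 h mouse 6, with high Ttr, was the highest of its group. The log2 fold change was -1.18 (SE 0.30, adjusted p = 0.0236), -0.75 with the choroid plexus covariate (adjusted p = 0.0809) and -0.50 without the 4 mice. Acads, an acyl-CoA dehydrogenase, fell by 1.07 on the log2 scale, and its value with the choroid plexus covariate was -0.67 (adjusted p = 0.135). Gbe1, the glycogen branching enzyme, fell by 0.89, Acsf2, an acyl-CoA synthetase, by 0.92 and Depdc7 by 1.06, and none of the 5 passed with the choroid plexus covariate. Of 24 genes of fatty acid synthesis and oxidation 2 were lower, Hadhb (-0.63), of the mitochondrial trifunctional protein, and Acadl (-0.89), and 0 higher, with a list median of -0.54 and 17 genes at an unadjusted p under 0.05. That median was -0.26 with the choroid plexus covariate and -0.15 without the 4 mice, and neither gene passed there. What part the choroid plexus mRNA had in these falls was not tested.

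Of 22 clock genes, 3 were lower and 0 higher (median -0.12). Nr1d2, which encodes the repressor REV-ERBbeta, was at 86, 71.6, 69.5, 82.2 and 83.2 CPM in HC mice and at 50.5 to 66.1 CPM (median 61.4) at ORM+12 h. All ORM+12 h mice were below all HC mice (log2 fold change -0.40, SE 0.10, adjusted p = 0.0236). Ciart, a repressor of CLOCK and BMAL1, was at 17.2 to 23.2 CPM in HC mice and 10.6 to 16.4 CPM at ORM+12 h, also without overlap (-0.60, SE 0.15, adjusted p = 0.025). Cry1, a cryptochrome of the negative limb, was at 23.7 to 32.8 and 20.3 to 25.8 CPM, with HC mouse 3 inside the range of the trained mice (-0.35, SE 0.09, adjusted p = 0.025). With the choroid plexus covariate only Ciart of these 3 passed (-0.65, adjusted p = 0.0326). Dbp, a clock output factor, was at 150 to 187 CPM in HC mice and 112 to 146 CPM at ORM+12 h, without overlap, but its log2 fold change of -0.40 did not pass (adjusted p = 0.154). Per1 (-0.32, adjusted p = 0.134), Per2 (-0.17, adjusted p = 0.534) and Nr1d1 (-0.12, adjusted p = 0.633) did not pass either, with overlapping groups. Bmal1 (0.11) and Clock (0.04), the activators, had small values of the other sign. The ORM+12 h mice were killed in a window around zt15, and a difference in clock time cannot be told apart from the training.

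The promoters of the 3 clock genes that fell are shown because E-boxes and ROR elements are the usual sites through which clock factors act. They run from 250 bases before to 50 bases after the start in RefSeq, build GRCm38.p6, at chr14:18239057-18239356 (Nr1d2, minus strand), chr3:95882179-95882478 (Ciart, minus strand) and chr10:85185005-85185304 (Cry1, minus strand), and capitals mark the E-box CACGTG and the ROR element core AGGTCA, searched on both strands.
Nr1d2: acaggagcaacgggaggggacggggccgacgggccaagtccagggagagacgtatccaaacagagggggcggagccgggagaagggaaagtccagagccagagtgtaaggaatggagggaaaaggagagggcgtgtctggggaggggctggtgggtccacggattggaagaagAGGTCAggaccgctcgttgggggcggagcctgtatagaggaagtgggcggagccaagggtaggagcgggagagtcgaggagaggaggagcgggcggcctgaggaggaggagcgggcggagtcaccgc
Ciart: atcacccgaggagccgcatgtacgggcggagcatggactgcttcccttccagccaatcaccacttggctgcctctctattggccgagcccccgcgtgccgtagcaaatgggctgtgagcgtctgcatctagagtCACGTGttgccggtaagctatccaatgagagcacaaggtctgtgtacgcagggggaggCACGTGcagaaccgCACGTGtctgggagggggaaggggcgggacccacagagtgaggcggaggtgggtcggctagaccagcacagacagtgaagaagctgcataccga
Cry1: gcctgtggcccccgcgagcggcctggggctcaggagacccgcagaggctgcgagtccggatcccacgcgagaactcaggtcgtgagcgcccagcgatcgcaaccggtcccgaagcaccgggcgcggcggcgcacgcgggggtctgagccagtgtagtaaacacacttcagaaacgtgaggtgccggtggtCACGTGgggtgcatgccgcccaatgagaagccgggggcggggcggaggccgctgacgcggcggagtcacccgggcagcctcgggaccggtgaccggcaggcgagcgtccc
The Ciart promoter holds 3 E-boxes, that of Cry1 holds 1 and that of Nr1d2 holds 1 AGGTCA and no E-box. An E-box is in 7.24% of 27025 promoters of this length and AGGTCA in 16.0%. Among the 17 of 22 clock genes matched to this table, 5 have a promoter with an E-box and 4 one with AGGTCA. These are matches of letters and not measured binding.

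No activity-induced gene was called higher than in home cage mice 12 h after training. Of 30 tested, 3 were lower and 0 higher, 25 had a negative log2 fold change and the median was -0.24. Sik1, a kinase induced by cyclic AMP, was at 21.8, 12.4, 22.5, 18.9 and 15.9 CPM in HC mice and at 6.14 to 15.6 CPM (median 8.16) at ORM+12 h. ORM+12 h mice 5 and 6 reached the range of the HC mice and the other 4 were below it (log2 fold change -0.88, SE 0.24, adjusted p = 0.0335). Rgs2, which shortens G protein signalling, was at 43.3 to 58.7 and 33.1 to 42.7 CPM without overlap (-0.42, adjusted p = 0.0157). Gadd45g, linked to DNA repair and demethylation, was at 26.1 to 33.8 and 18.1 to 22.7 CPM, also without overlap (-0.56, adjusted p = 0.0372). With the choroid plexus covariate 1 of the 3, Rgs2, passed.

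The immediate early genes varied within each group. Fos was at 29.6, 17.9, 19.2, 34.1 and 38.7 CPM in HC mice and at 7.95 to 34.2 CPM (median 12.6) at ORM+12 h, with a log2 fold change of -0.69 (SE 0.33, adjusted p = 0.21). HC mice 1, 4 and 5 and ORM+12 h mice 5 and 6 were the high ones, and the groups overlapped. In Egr1 (-0.50, adjusted p = 0.109), Arc (-0.37, adjusted p = 0.292) and Nr4a1 (-0.34, adjusted p = 0.361) HC mice 4 and 5 were the highest of their group and ORM+12 h mice 5 and 6 the highest of theirs. HC mouse 5 and ORM+12 h mouse 5 had Ttr below 1000 CPM, and the other 2 above it.

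The same genes had been far above home cage levels at ORM+1 h in other HFS TRF mice, compared with HC zt3. At ORM+1 h 29 of the 30 activity-induced genes were higher (676 of 30141 genes in all, 2.24%, with 188 lower, 0.624%, and 2.87% called in either direction), with a median log2 fold change of 1.21, and the change was lower at ORM+12 h than at ORM+1 h for 26 of them in the interaction test (554 genes higher, 1.84%, and 810 lower, 2.69%, 4.53% together, over all genes, or 574 and 962 with the choroid plexus covariate). Fos changed by 2.73 at ORM+1 h and Arc by 1.96. Over the whole transcriptome, 26 of the 741 genes called at ORM+12 h were also called at ORM+1 h, where 2.87% of all genes tested were called. Whether this overlap exceeded chance was not tested. Of all 741 genes, 442 had opposite signs at the 2 intervals. Over the 14618 genes with a mean of at least 1 CPM, called or not, 49.9% had the same sign. Of the 26 genes called at both intervals, 25 had opposite signs. The 17 that were higher at ORM+1 h and lower at ORM+12 h included Sik1 (1.42 and -0.88), Gadd45g (0.58 and -0.56), Cry1 (0.40 and -0.35), the small GTPase Gem (1.13 and -1.07), Klf15 (0.50 and -0.45), a target of glucocorticoids, Crot (0.82 and -0.67), of peroxisomal fatty acid transfer, and the intermediate filament Vim (0.73 and -0.77). The 8 that were lower and then higher included Mapk3 (-0.25 and 0.25), which encodes the kinase ERK1. The 147 synaptic and channel genes had a median of 0.00 at ORM+1 h, with 6 higher and 0 lower. The intervals also differ in clock time and experiment, which cannot be told apart from the time since training.

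**Figure D5:**
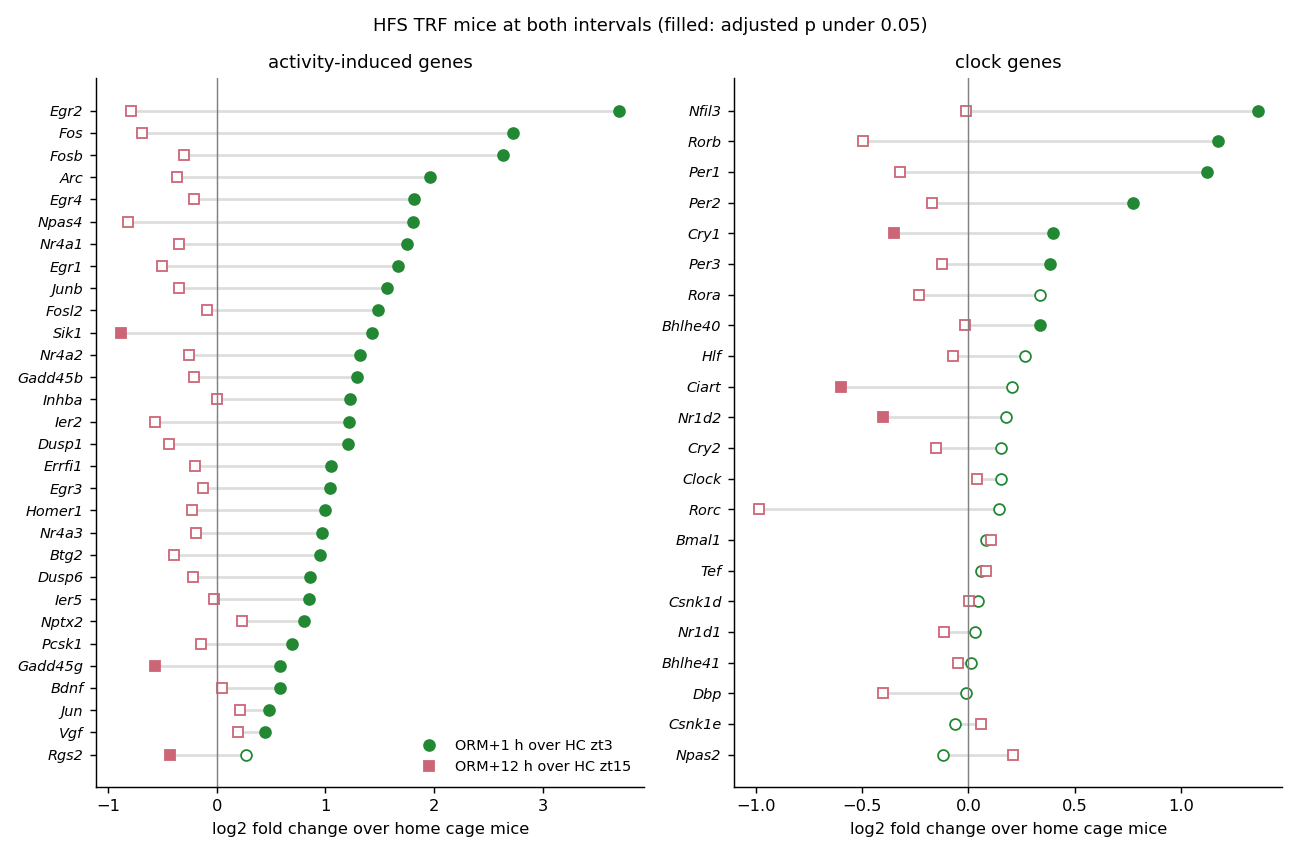
Log2 fold change over home cage mice for 30 activity-induced genes (left) and 22 clock genes (right) in HFS TRF mice, at ORM+1 h (green circles) and ORM+12 h (red squares); filled symbols have an adjusted p under 0.05. At ORM+1 h 29 and 7 genes are higher, and at ORM+12 h 3 and 3 are lower.

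In the thyroid hormone list 2 of 25 genes were higher and 0 lower, with a median of 0.00. Thra, the main thyroid hormone receptor of neurons, was at 1729, 2044, 2036, 1863 and 1987 CPM in HC mice and at 2265 to 2741 CPM (median 2438) at ORM+12 h. The groups did not overlap (log2 fold change 0.34, SE 0.08, adjusted p = 0.0174), and with the choroid plexus covariate the value was 0.29 (adjusted p = 0.0475). These counts are per gene and add the splice forms Thra1 and Thra2, both highly expressed according to the paper. A change in either form cannot be told apart here. Mapk3 (0.25, adjusted p = 0.0254) was the other, and it did not pass with the choroid plexus covariate (0.22, adjusted p = 0.0714). Dio2, the deiodinase of astrocytes that makes the active hormone, was at 37.4 to 47.5 CPM in HC mice and 29.6 to 44.4 CPM at ORM+12 h, with overlap (-0.18, SE 0.25, adjusted p = 0.751), and rose by 1.49 at ORM+1 h (adjusted p = 2.55e-05). Sgk1, a kinase induced by glucocorticoids, was the only 1 of 20 genes of its list that was lower (-0.65, adjusted p = 0.0194), at 65.3 to 138 CPM in HC mice and 58.1 to 72.1 CPM at ORM+12 h, with HC mouse 5 inside the range of the trained mice. In the Notch list Numb (-0.46, adjusted p = 0.0224) was lower and none of the other 26 genes passed. In both Sgk1 and Numb the 3 HC mice with high Ttr were the 3 highest of their group. With the choroid plexus covariate Sgk1 was at -0.41 (adjusted p = 0.0475), and Numb at -0.32 did not pass (adjusted p = 0.0545). Without the 4 mice with high Ttr the values were -0.25 and -0.28. No gene passed among 83 cytosolic ribosomal proteins (median -0.01), 82 nuclear-encoded subunits of oxidative phosphorylation (-0.13), 39 proteasome subunits (-0.18) or 24 chaperones and stress genes of the endoplasmic reticulum (-0.04) in edgeR. At an unadjusted p under 0.05 these lists held 9, 26, 22 and 1 genes, and the DESeq2 Wald test called 1, 4, 4 and 0 of them, all lower.

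Of the summed marker lists, that of myelinating oligodendrocytes differed between the groups after adjustment. Its 12 markers of myelinating oligodendrocytes summed to 921 to 1197 CPM in HC mice and 1237 to 1450 CPM at ORM+12 h, without overlap (difference in mean log2 level 0.39, exact permutation p = 0.00216, the smallest these mice can give, adjusted p = 0.0346). All 12 had a positive log2 fold change, but only Mbp, myelin basic protein, passed in edgeR, at 370, 472, 413, 414 and 422 CPM in HC mice and 513 to 619 CPM at ORM+12 h (0.42, adjusted p = 0.0272). With the choroid plexus covariate Mbp did not pass (0.37, adjusted p = 0.0656). The median log2 fold change of these markers was 0.37, with the covariate 0.33 and without the 4 mice with high Ttr 0.22. The 16 astrocyte markers summed to 5077 to 7188 CPM in HC mice and 3641 to 5205 CPM at ORM+12 h (-0.43, exact permutation p = 0.00649, adjusted p = 0.052), with HC mouse 4 inside the range of the trained mice. All 16 had a negative log2 fold change and 0 passed in the edgeR model of all 71 mice, with 3 at an unadjusted p under 0.05, while 1 was called lower by DESeq2 and 9 by edgeR in the 11 mice alone, and 14 of them were higher at ORM+1 h. Neuron markers summed to 16219 to 17530 and 17364 to 19816 CPM (0.11, exact permutation p = 0.013, adjusted p = 0.0693), and markers of regions beside the hippocampus to 439 to 784 and 365 to 626 CPM (-0.52, exact permutation p = 0.0281, adjusted p = 0.09). Microglia markers (117.9 to 188.6 CPM at ORM+12 h and 89.3 to 134 CPM in HC mice) and oligodendrocyte precursor markers (311 to 363 and 263 to 358 CPM) overlapped between the groups and did not pass (exact permutation p = 0.0823 and 0.117, both 0.157 after adjustment). Dentate granule cell markers summed to 480 to 581 and 524 to 677 CPM (0.24, exact permutation p = 0.0195, adjusted p = 0.0779). The part of these shifts in the gene changes above was not tested.

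The same contrast was made in mice on the other diets, each with its own HC and ORM+12 h mice. There 21 genes were higher and 33 lower in HFS ad lib mice (0.0697% and 0.109%, 0.179% together) and 43 higher and 20 lower in NC ad lib mice (0.143% and 0.0664%, 0.209% together). Of the 473 genes higher in HFS TRF mice, 435 (92.0%) had a positive log2 fold change in HFS ad lib mice, with a median of 0.16, and 358 (75.7%) in NC ad lib mice, with a median of 0.08, while 48.3% and 52.6% of the 14618 genes with a mean of at least 1 CPM were positive there. Of the 268 lower genes, 187 (69.8%) and 216 (80.6%) were negative, against 51.7% and 47.4% of those 14618 genes. Over the same 14618 genes, called or not, 62.5% had the same sign in HFS TRF and HFS ad lib mice and 59.1% in HFS TRF and NC ad lib mice. In HFS ad lib mice Ttr had the opposite sign, with 2 of 6 HC mice and 4 of 6 ORM+12 h mice above 1000 CPM and a choroid plexus marker median of 1.69, and in NC ad lib mice the counts were 4 of 6 and 1 of 6 and the median -2.63. The median of the 147 synaptic and channel genes was 0.01 in HFS ad lib and 0.13 in NC ad lib mice. In the interaction test of edgeR 0 genes (0.0%) had a change in HFS TRF mice that differed from that in HFS ad lib mice, with 4247 at an unadjusted p under 0.05. Against NC ad lib mice the counts were 0 (0.0%) and 4070. DESeq2 called 17 and 98. On these diets, in that order, Drd5 had log2 fold changes of 0.21 and 0.36, Cnih3 of 0.37 and 0.13, and Grm2 of 0.48 and 0.41, none of which passed.

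The genes that changed also differed in base composition. The median GC content of the longest transcript was 55.0% for the higher genes and 47.2% for the lower genes, against 49.5% for all genes with a mean of at least 1 CPM. When these 14581 genes were split by GC content into 4 classes of nearly equal size, 28 of the higher genes were in the class of lowest GC and 259 in that of highest GC, and 70 and 31 of the lower genes. The median log2 fold change of all genes ran from -0.07 in the class of lowest GC to 0.05 in that of highest GC, and from -0.07 to 0.08 without the 4 mice with high Ttr. It ran from -0.08 to 0.06 in HFS ad lib mice and from 0.01 to 0.01 in NC ad lib mice. The median length of the longest transcript was 4600 nt for the higher, 3436 nt for the lower and 4254 nt for all these genes. Whether GC content in library preparation had a part in the changes was not tested.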

How the data were processed

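The authors trimmed the reads (Trim Galore 0.6.7 with cutadapt 3.4), aligned them with HISAT2 2.2.0 and counted reads per gene with featureCounts of Subread 2.0.3, as given in the methods and the submitters' processing notes, which name the builds GRCm39 and mm9. The deposited values are raw counts of 57010 genes in 71 mice, with no normalization or pooling. Groups came from the diet, time and treatment labels; the titles of TRF mice also hold the words ad libitum, which the diet label does not.

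Genes with at least 10 counts in total were fitted in edgeR 4.0.16 (TMM, 12 groups of diet and condition). The quasi-likelihood p-values were adjusted after Benjamini and Hochberg and called below 0.05; DESeq2, the study's tool, was an alternative (version 1.42.0 here). Fold changes compare levels between groups on the log2 scale. Single values were compared by 2-sided exact permutation over the 11 mice. The paper housed mice in groups, but nothing says which replicates shared a cage or day. The edgeR p-values rest on the spread within the 12 groups of all 71 mice, and the permutation p-values on the 11 mice. Neither takes account of a shared cage or day. Gene symbols and coordinates are from GENCODE vM39 (29791 of 30141 genes matched).

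The comparison and the 45 gene lists were chosen with earlier results of these data known. Genes named are the 10 higher and 10 lower with the smallest p and the 5 of each with the largest fold change, all passing, without overlap between groups and with a mean of at least 1 CPM and a symbol that is not a model number; the called member of each list with the smallest p in each direction; and Ttr, Per1, Per2, Dbp, Nr1d1, Fos, Arc, Egr1, Nr4a1 and Dio2. Other list members, and genes called at both intervals, were named after their values were seen. The model was also run on simulated counts with known changes. These held no choroid plexus content or other factor shared by the genes of a mouse, so they do not bear on its effect here. Total counts of the 11 mice were 47472589 to 56723234; alternatives and their effect are given with the further observations. Most called genes are not named, and a few that would have been are not reported here.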

Additional observations from a re-analysis of the deposited data

Results flagged for a closer look

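In the 5 HC mice or the 6 ORM+12 h mice, 1 mouse stood far from the others of its group in 12 of 202 groups tested, where chance flags about 1 in 20. Ttr was at 9760 CPM in ORM+12 h mouse 6 and at most 557 CPM in the other 5. HC mouse 3 was the outlying mouse in 10 of the 12. It was the highest of its group in Ntng2 (39.8 CPM, the next at 30.6), C1ql2 (86.4 and 69.1), Orai2 (215 and 175), Chd3 (906 and 738), Grik5 (504 and 355), Shank3 (228 and 178), Shank1 (536 and 357), Kcnd3 (59.3 and 53.8) and Map1a (1530 and 1281), all genes that were higher at ORM+12 h. It was the lowest in Nufip2 (23.7 CPM, the next at 27.5), a gene that was lower at ORM+12 h. So in these 10 genes the HC mouse with the highest Ttr lay nearest to the trained mice, and without it 651 genes were higher and 287 lower. Coq10b, of coenzyme Q metabolism, was at 14.5 CPM in ORM+12 h mouse 4, the next at 11.5.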

How the results depend on the processing

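The count of called genes depended on the fit, while 0 of the 91 called genes named changed sign in any of 24 alternatives. These genes were chosen by passing in the same mice that the alternatives refit, so the kept signs do not test the direction. Against 473 higher and 268 lower genes, DESeq2 called 995 and 696, a filter by filterByExpr 728 higher, protein-coding genes alone 425 lower, Ttr as a covariate 180 and 68, the choroid plexus markers as a covariate 132 and 56, the 35 mice killed at or around zt15 alone 0 and 0, and the fit without the 4 mice with high Ttr, chosen after seeing the data, 0 and 1. Leaving out 1 mouse gave 3 to 669 higher and 4 to 397 lower, and 85 and 87 of the 91 genes no longer passed without HC mouse 1 or HC mouse 4. For the difference from HFS ad lib mice (0 genes), DESeq2 called 17, the choroid plexus covariate 1 and the fits without 1 mouse 0 to 5; for that from NC ad lib mice (0 genes), DESeq2 called 98, filterByExpr 4, each of both covariates 8 and the fits without 1 mouse 0 to 9. The genes whose change was higher at ORM+12 h than at ORM+1 h (554) numbered 315 to 669 without 1 mouse, and the other direction (810) 557 to 830. Ttr, which did not pass, went from -1.82 to 0.00 with itself as a covariate, to 0.10 with the choroid plexus markers and to 0.11 with them in the 11 mice alone. Across mice of the same replicate number the deviations from the group means correlated at -0.285 to 0.122. In 0 of 5 numbers did the HC mouse correlate best with its own trained mouse. These correlations take in the choroid plexus content of each mouse, so they cannot tell whether mice of a number shared a day or cage. With the replicate number as a block the 11 mice alone gave 850 higher and 1176 lower genes, against 419 and 304 without it. The cause of these differences was not tested.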
